A study of Mus musculus with 4 samples.

Results

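The 10 genes described here mark or define liver macrophages and were followed across 4 microarrays of mouse hepatic macrophages: Itgam and Adgre1, which encode the surface proteins CD11b and F4/80 named in the sample labels, and Marco, Clec4f, Cd5l, Folr2, C1qc, Cd163, Nr1h3 and Slc40a1, which are associated with resident liver macrophages. They were taken as the probe sets annotated to exactly 1 of these 10 symbols, and each gene had 1 such probe set, so that 10 probe sets of 30604 with a single symbol were described. No probe set listed a member together with another symbol, and none of the 10 shared its 4 values with another probe set. The RNA came from livers of male C57BL/6J mice, all carrying the disease model called CRCLM in the labels, and the age of the animals is not given in the sources used here. One antibody group had received an antibody against the chemokine CCL3 (anti-CCL3) and the other an isotype control antibody. Within each antibody group 1 array was of a fraction named F_4_80_CD11b_m and 1 of a fraction named F_4_80_CD11b_p. The meaning of the letters is not spelled out, so the letters m and p serve here as names, and neither fraction is taken to be the one with more CD11b or F4/80. Each of the 4 combinations had 1 array, the sources do not say how many animals were pooled, and no combination has a replicate error.

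Kupffer cells are the resident macrophages of the liver sinusoids, where they clear particles, bacteria and ageing red blood cells from the blood. Their identity is maintained by signals from neighbouring liver cells and by the nuclear receptor LXR alpha, and they are told from monocyte-derived macrophages by surface proteins such as CLEC4F. F4/80 is usually high and CD11b usually low on Kupffer cells, while cells newly derived from monocytes tend to show the opposite balance. The 10 genes cover these sides of the cell: 2 surface proteins used for sorting, the scavenger receptor family members Marco, Cd163 and Cd5l, the lectin Clec4f, the folate receptor Folr2, the complement chain C1qc, the nuclear receptor Nr1h3 and the iron exporter Slc40a1.

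The start regions of myeloid genes often carry the purine-rich core GAGGAA, which the factor PU.1 can bind, and the matches upstream of the members are shown as a description. The RefSeq promoter table (GRCm38.p6) held 10 windows for 8 of the members. In the 250 bases before the gene start 4 members, in 4 of the 10 windows, had GAGGAA or its complement TTCCTC. The same letters were found on either strand in 23.3% of all 32851 windows of that length. Adgre1 and Slc40a1 had no window in the table. The lines give the stretch around each match on the strand of the gene, with the match in capitals.
Marco: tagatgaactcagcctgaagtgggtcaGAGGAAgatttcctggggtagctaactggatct
Cd5l: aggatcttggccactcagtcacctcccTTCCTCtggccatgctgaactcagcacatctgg
C1qc: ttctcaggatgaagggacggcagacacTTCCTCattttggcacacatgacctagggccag
Itgam: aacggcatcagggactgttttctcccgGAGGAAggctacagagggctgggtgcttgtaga
These lie at chr1:120505138-120505197 (minus strand), chr3:87357788-87357847 (plus strand), chr4:136893075-136893134 (minus strand) and chr7:128062529-128062588 (plus strand), with the match beginning 146, 66, 193 and 84 bases before the gene start. Itgam had another match, TTCCTC, beginning 15 bases before its start. A TATA box, TATAAA, was in none of the members' windows and in 12.4% of all windows. A match of letters is a description of the window, and arrays of RNA do not measure binding to it.

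The signals of the 10 genes lay inside the distribution of the arrays' 5222 negative-control probe sets. These were recognised as negative controls by their names alone, and what they match was not checked. On the log2 scale of the deposited RMA signals (robust multi-array average), the mean over 4 arrays ran from 6.22 in Folr2 to 8.40 in Marco, while the negative controls had a median of 6.34, an interquartile range from 5.27 to 7.84 and a 95th percentile of 11.6. All but Marco lay within that interquartile range, and Marco was above it. As percentiles of the negative controls, the members' means stood at 47.2 for Folr2, 48.3 for Itgam, 52.0 for Adgre1, 54.1 for Cd163, 57.0 for Slc40a1, 58.7 for C1qc, 59.2 for Clec4f, 68.1 for Nr1h3, 72.9 for Cd5l and 80.5 for Marco. Among all 30604 named probe sets the same means stood between percentiles 53.5, for Folr2, and 93.6, for Marco. Since binding varies from one probe set to another, these percentiles do not order the genes by transcript abundance. None of the 10 had a mean above the 95th percentile of the controls, 11.6. That level is above the 95th percentile of all named probe sets, 8.78, so most genes would miss it too. A level that most genes miss cannot decide whether the labelled cell type is right, and no check of it was drawn from these levels. The median of the 10 was 6.65 and 6.70 on the m and p arrays of the anti-CCL3 group and 6.70 and 6.64 on those of the isotype group.

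**Figure D1:**
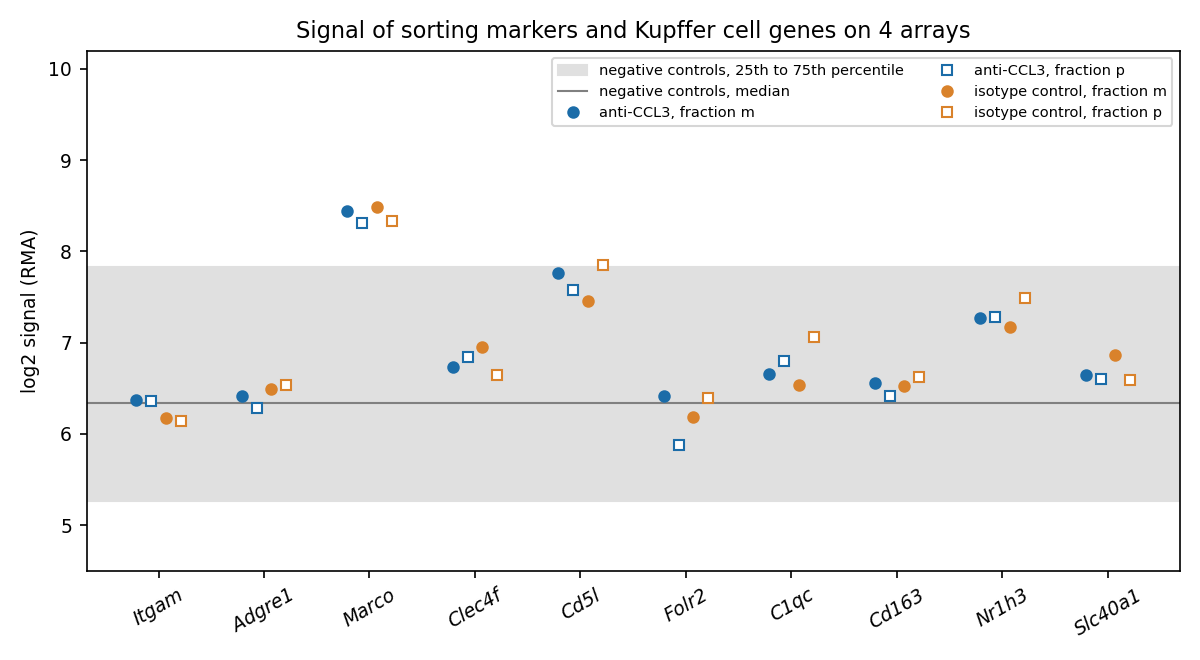
Log2 RMA signal (vertical axis) of each of the 10 genes (horizontal axis) on the 4 arrays, with 1 point per array. The grey band is the interquartile range of the mean signals of 5222 negative-control probe sets, 5.27 to 7.84, and the line their median, 6.34; only Marco has all 4 points above the band, and Cd5l reaches its upper edge on the isotype control array of fraction p.

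The members varied little between arrays. The difference between a member's highest and lowest array ran from 0.18 in Marco to 0.54 in Folr2, with a median of 0.29. The same range had a median of 0.32 over all named probe sets and of 1.63 over the negative controls. Folr2 and C1qc varied most, with standard deviations over 4 arrays of 0.25 and 0.22, and 26.7% and 31.0% of all named probe sets had a larger one. Marco and Cd163 varied least, with standard deviations of 0.09 and 0.09, which 74.9% and 73.4% of named probe sets exceeded. Negative controls differed more between arrays than named probe sets also where their mean lay between the lowest and the highest member mean, with a median range of 1.70 in 1737 such controls, and the reason was not tested.

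**Figure D2:**
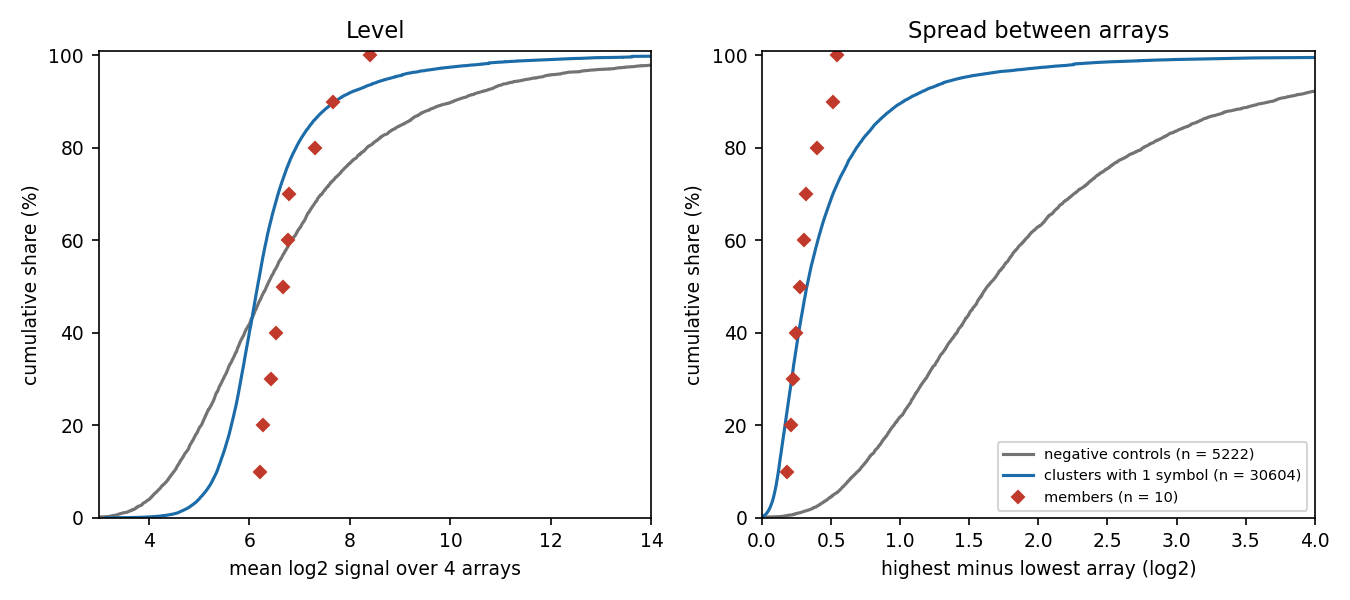
Cumulative share (vertical axis, percent) of probe sets by mean log2 signal over 4 arrays (left) and by the log2 difference between the highest and the lowest array (right). Grey, 5222 negative controls; blue, 30604 probe sets with 1 symbol; red diamonds, the 10 members. The members' means lie inside the range of the negative controls, and their spread follows the named probe sets, with medians of 0.29 and 0.32 against 1.63 in the negative controls.

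No member passed limma's test for antibody or for fraction. The model added an antibody effect and a fraction effect over the 4 arrays, which leaves 1 residual degree of freedom. Adjusted over 30604 probe sets with Benjamini-Hochberg, the members' p ran from 0.812 to 1 for antibody and from 0.708 to 0.98 for fraction. Of all named probe sets 0% passed for antibody and 0% for fraction, with 0.511 and 0.49 the smallest adjusted p. At an unadjusted p below 0.05 stood 2069 probe sets for antibody, 1518 higher and 551 lower after anti-CCL3, and 2485 for fraction, 703 higher and 1782 lower in fraction p, and 0 of the 10 members were among either. The smallest standard error the fit gave to any probe set was 0.10, which is set by the pooled prior, so an error of 0.10 is not a spread measured between arrays. A missed threshold in this design does not show that the groups are alike, and in RNA of whole fractions fewer cells of a type cannot be told apart from less RNA per cell.

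Of the sorting markers, Itgam had signals of 6.37 (m) and 6.36 (p) with anti-CCL3 and of 6.18 (m) and 6.15 (p) with isotype control. Both anti-CCL3 arrays were above both isotype arrays, a separation that 18.8% of all named probe sets showed, and the fractions overlapped. ITGAM is the alpha chain of complement receptor 3, which binds the complement fragment iC3b and pairs with the beta chain ITGB2. The antibody difference, anti-CCL3 minus isotype, was 0.19 within m and 0.21 within p, and the fit gave 0.20 ± 0.10 (SE, 4 arrays) and a 95% interval from -0.12 to 0.53. Its adjusted p in limma was 0.812. Itgb2 stood at -0.14 within m and -0.12 within p, both below 0 where those of Itgam were above it, and its values under other scalings were not read. Between fractions Itgam differed by -0.01 after anti-CCL3, where the other scalings gave values from 0.02 to 0.05, and by -0.03 after isotype control.

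Adgre1 encodes F4/80, an adhesion-type receptor with EGF-like domains that is a general marker of mouse tissue macrophages. Its signals were 6.41 (m) and 6.29 (p) with anti-CCL3 and 6.50 (m) and 6.54 (p) with isotype control. Both anti-CCL3 arrays were below both isotype arrays, as in 13% of all named probe sets, while the fractions overlapped. Anti-CCL3 minus isotype was -0.08 within m and -0.25 within p, and the fit gave -0.17 ± 0.11 (SE, 4 arrays) and an adjusted p of 0.87 in limma. Fraction p minus fraction m was -0.13 after anti-CCL3 and 0.04 after isotype control. The fitted differences between fractions were -0.02 ± 0.10 in Itgam and -0.04 ± 0.11 in Adgre1 (SE), with 95% intervals from -0.34 to 0.30 and from -0.41 to 0.32. Neither gene that gives the fractions their name therefore separated them at the level of RNA on these arrays, within these intervals. The separations between antibody groups of Itgam and of Adgre1 kept their directions under quantile normalisation, median centring, cyclic loess normalisation and centring on the negative controls.

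Marco, Cd163 and Cd5l belong to the scavenger receptor cysteine-rich superfamily. MARCO is a trimeric receptor of class A that binds bacteria and modified lipoproteins. Its signals were 8.45 (m) and 8.31 (p) with anti-CCL3 and 8.49 (m) and 8.34 (p) with isotype control. Both p arrays were below both m arrays, by 0.13 and 0.15, as in 20.8% of all named probe sets. The fitted value for p minus m was -0.14 ± 0.10 (SE, 4 arrays), with an adjusted p of 0.788 in limma. Its sign turned to 0.09 under quantile normalisation and to 0.06 under cyclic loess normalisation. Between antibodies it differed by -0.04 within m and -0.02 within p. These values depended on the scaling: they were -0.28 and -0.27 under quantile normalisation and -0.26 and -0.18 under cyclic loess normalisation, where both anti-CCL3 arrays were below both isotype arrays. The fitted antibody value of Marco was -0.03 as deposited, -0.28 under quantile normalisation and -0.22 under cyclic loess normalisation.

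CD163 takes up haemoglobin bound to haptoglobin. Cd163 had signals of 6.56 (m) and 6.41 (p) with anti-CCL3 and of 6.53 (m) and 6.63 (p) with isotype control. The p array after anti-CCL3 was lowest and the other arrays lay between 6.53 and 6.63, and the groups overlapped for antibody and for fraction in the deposited values. The antibody difference was 0.03 within m and -0.21 within p, fitted as -0.09 ± 0.12 (SE). Under each of the 4 other scalings the value within m was below 0, from -0.0208 to -0.0024, and both anti-CCL3 arrays were below both isotype arrays. As deposited, 13% of all named probe sets showed that separation, and the share under the other scalings was not computed. CD5L, also called AIM, is a secreted protein of macrophages that is induced through LXR and acts on lipid metabolism and cell survival. Cd5l had signals of 7.77 (m) and 7.57 (p) with anti-CCL3 and of 7.46 (m) and 7.86 (p) with isotype control. Its highest and its lowest array were both isotype controls. Anti-CCL3 minus isotype was 0.31 within m and -0.28 within p, and the fitted value of 0.01 ± 0.20 (SE) averages over these opposite values.

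Clec4f encodes a C-type lectin that in the mouse is restricted to Kupffer cells and binds galactose-containing glycans. Its signals were 6.73 (m) and 6.85 (p) with anti-CCL3 and 6.95 (m) and 6.64 (p) with isotype control. As in Cd5l, the isotype control arrays held both the highest and the lowest value, here with fraction m high and fraction p low. Between antibodies it differed by -0.22 within m and 0.20 within p, and fraction p minus fraction m was 0.12 after anti-CCL3 and -0.30 after isotype control. Folr2 encodes folate receptor beta, which marks several resident macrophage populations. It had signals of 6.42 (m) and 5.88 (p) with anti-CCL3 and of 6.19 (m) and 6.40 (p) with isotype control. The p array after anti-CCL3 stood alone at the low end, and the other arrays lay between 6.19 and 6.42. The antibody difference was 0.23 within m and -0.52 within p, the fitted value was -0.15 ± 0.25 (SE), and its 95% interval, from -0.97 to 0.68, was the widest among the members. An absolute antibody difference in fraction p larger than that of Folr2 was found in 12.9% of all named probe sets and in 64.8% of the negative controls.

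C1qc encodes the C chain of C1q, which starts the classical complement pathway and which macrophages make. Its signals were 6.65 (m) and 6.80 (p) with anti-CCL3 and 6.54 (m) and 7.06 (p) with isotype control. Both p arrays were above both m arrays, as in 15.9% of all named probe sets, and the antibody groups overlapped. Fraction p minus fraction m was 0.15 after anti-CCL3 and 0.52 after isotype control, with a fitted value of 0.33 ± 0.15 (SE, 4 arrays), the largest fitted difference of any member. Its 95% interval ran from -0.15 to 0.82 and its adjusted p in limma was 0.708. C1q is assembled from 3 chains encoded side by side, and the other 2 were read after these values were seen. C1qa had p minus m differences of 0.13 after anti-CCL3 and -0.28 after isotype control, and C1qb had -0.0032 and -0.04. The fitted values were -0.08 ± 0.16 and -0.02 ± 0.10 (SE), and the difference between the chains was not tested. Their mean signals, 5.84 and 5.35, were below the negative-control median.

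Nr1h3 encodes LXR alpha, a receptor for oxidised cholesterol derivatives that directs cholesterol efflux genes and sustains Kupffer cell identity. It had signals of 7.27 (m) and 7.28 (p) with anti-CCL3 and of 7.18 (m) and 7.50 (p) with isotype control. Both p arrays were above both m arrays, by 0.01 after anti-CCL3 and 0.32 after isotype control, as in 15.9% of all named probe sets. Under quantile and cyclic loess normalisation the difference after anti-CCL3 was 0.13 and 0.12, and the fitted value below was 0.28 and 0.25. As deposited, the fitted value was 0.16 ± 0.13 (SE, 4 arrays), with an adjusted p of 0.825 in limma. Anti-CCL3 minus isotype was 0.09 within m and -0.22 within p. The value within m turned to -0.0147 under quantile and -0.0075 under cyclic loess normalisation. Among 13 LXR partners, targets and lipid handling genes 11 had a probe set, of which 9 were higher and 2 lower in fraction p. Over all named probe sets 44.9% were higher. The list had a median of 0.04 against -0.02 over all named probe sets, and 0 passed. Its median was 0.0292 under quantile normalisation, 0.0562 under median centring, 0.025 under cyclic loess normalisation and 0.088 under centring on the negative controls. All named probe sets had 0.0045, -0.0032, -0.0036 and 0.0287 there. Abcg1, an exporter of cholesterol to lipoproteins, stood at 0.13 ± 0.10 and Apoe, the apolipoprotein, at 0.11 ± 0.11 (SE), while Lpl, lipoprotein lipase, stood at -0.09 ± 0.10 and Npc1, a lysosomal cholesterol transporter, at -0.03 ± 0.11. For antibody, 5 of the 11 were higher and 6 lower, with a median of -0.02.

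Slc40a1 encodes ferroportin, through which macrophages return iron from digested red blood cells to the blood. Its signals were 6.65 (m) and 6.60 (p) with anti-CCL3 and 6.87 (m) and 6.59 (p) with isotype control. The isotype control array of fraction m stood above the other 3, which lay between 6.59 and 6.65. Both p arrays were below both m arrays, by 0.04 after anti-CCL3 and 0.28 after isotype control, as in 20.8% of all named probe sets. This separation was no longer there under quantile normalisation, cyclic loess normalisation or centring on the negative controls. Between antibodies it differed by -0.22 within m and 0.01 within p. Under quantile normalisation the value within p was -0.0112, and both anti-CCL3 arrays were below both isotype arrays. It was 0.0095 under median centring, 0.0038 under cyclic loess normalisation and 0.0131 under centring on the negative controls. All 14 genes of iron and haem handling had a probe set, of which 6 were higher and 8 lower in fraction p, with a median of -0.04, and 0 passed. This median was -0.03 under median centring and turned to 0.0090, 0.0038 and 0.0049 under quantile normalisation, cyclic loess normalisation and centring on the negative controls. Ftl1, the ferritin light chain, stood at 0.24 ± 0.10 and Hmox1, which degrades haem, at 0.22 ± 0.10 (SE), with both antibody groups on the same side. Slc48a1, a transporter of haem, stood at -0.18 ± 0.10 and Slc11a2, a transporter of divalent metals, at -0.17 ± 0.13 (SE). Both of these too had their antibody groups on the same side.

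**Figure D3:**
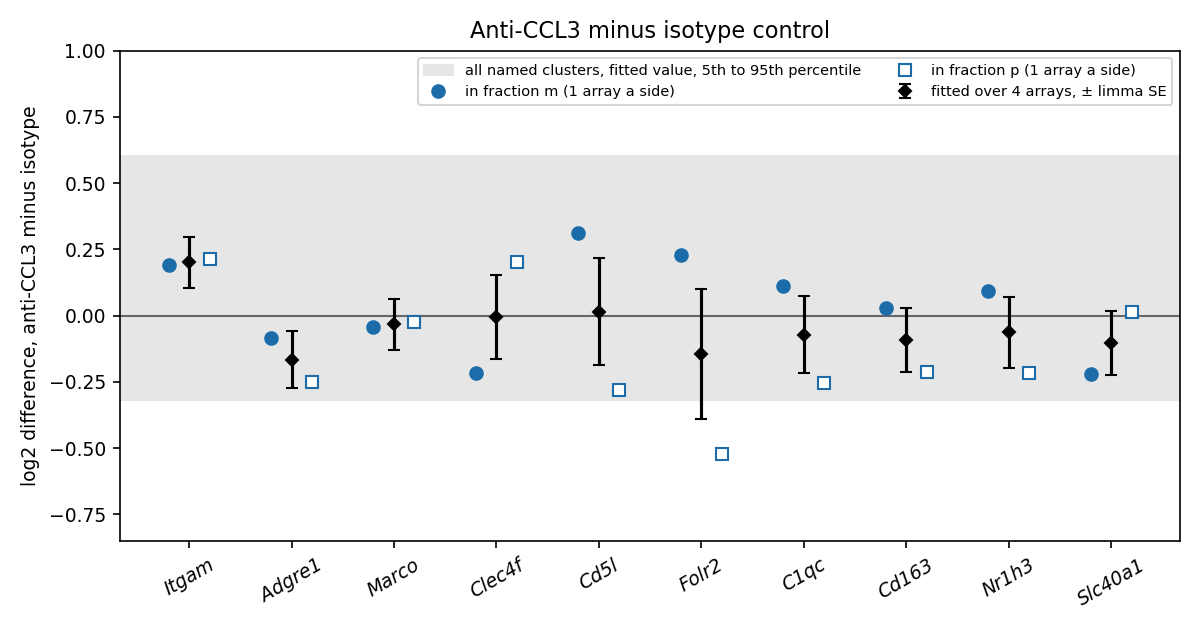
Log2 difference, anti-CCL3 minus isotype control (vertical axis), of the 10 genes in fraction m (filled circles) and fraction p (open squares), each from 1 array a side, with the value fitted over 4 arrays and limma's standard error (black). The grey band is the 5th to 95th percentile of the fitted values of 30604 named probe sets; in the deposited values plotted, 7 of 10 genes are below 0 in fraction p and 4 of 10 in fraction m (5 or 6 under other scalings), and each fitted value lies inside the band.

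Across the 10 genes the antibody difference was below 0 in most members within fraction p, and its sign within fraction m depended on the scaling. In the deposited values, in fraction m 6 were higher and 4 lower after anti-CCL3, with a median of 0.06, and in fraction p 3 were higher and 7 lower, with a median of -0.21. Over all named probe sets the medians were 0.04 and 0.00, and 41.7% and 49.0% were lower. The 7 that were lower in fraction p were Adgre1, Marco, Cd5l, Folr2, C1qc, Cd163 and Nr1h3, and 6 of them, all but Marco, differed by between -0.52 and -0.21. Under quantile normalisation 8 were lower in fraction p, with a median of -0.27, and under the other 3 scalings 7 were, with medians from -0.23 to -0.22. In fraction m 6, 5, 6 and 5 of 10 were lower under quantile normalisation, median centring, cyclic loess normalisation and centring on the negative controls, with medians of -0.0177, 0.03, -0.0115 and 0.03. As deposited, the antibody differences of 7 genes had opposite signs in the 2 fractions, against 47.4% of all named probe sets and 49.6% of negative controls. Under quantile normalisation 4 had opposite signs, under cyclic loess normalisation 5, and under either centring 6, and this difference between fractions rests on 1 array a side and was not tested. Averaged over fractions, 2 were higher, Itgam and Cd5l, and 8 lower, with a median of -0.07 against 0.02 over all named probe sets. Under each other scaling 9 were lower, all but Itgam. The members' medians were -0.14 under quantile normalisation, -0.13 under cyclic loess normalisation, -0.09 under median centring and -0.08 under centring on the negative controls. Of all named probe sets 44.5% were lower as deposited, and 52.8%, 50.1%, 50.2% and 49.1% under these scalings in the same order. Medians over all named probe sets were -0.0101, -0.0002, -0.0006 and 0.0032.

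Both antibody and fraction enter one observation on single arrays. Adgre1, Cd5l, C1qc, Cd163 and Nr1h3, 5 of the 10, had their highest signal on the isotype control array of fraction p, where 25.6% of all named probe sets had theirs. None had its highest signal on the p array after anti-CCL3, which held the highest signal of 21.3% of named probe sets and the lowest signal of Adgre1, Marco, Folr2 and Cd163. With centring on the array medians or on the negative controls 6 genes were highest on the isotype control array of fraction p, and with quantile or cyclic loess normalisation 7 were. The shares of all named probe sets highest on that array under these scalings were not computed. Differences in fraction p and differences within the isotype control group share this array and are not independent of each other.

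**Figure D4:**
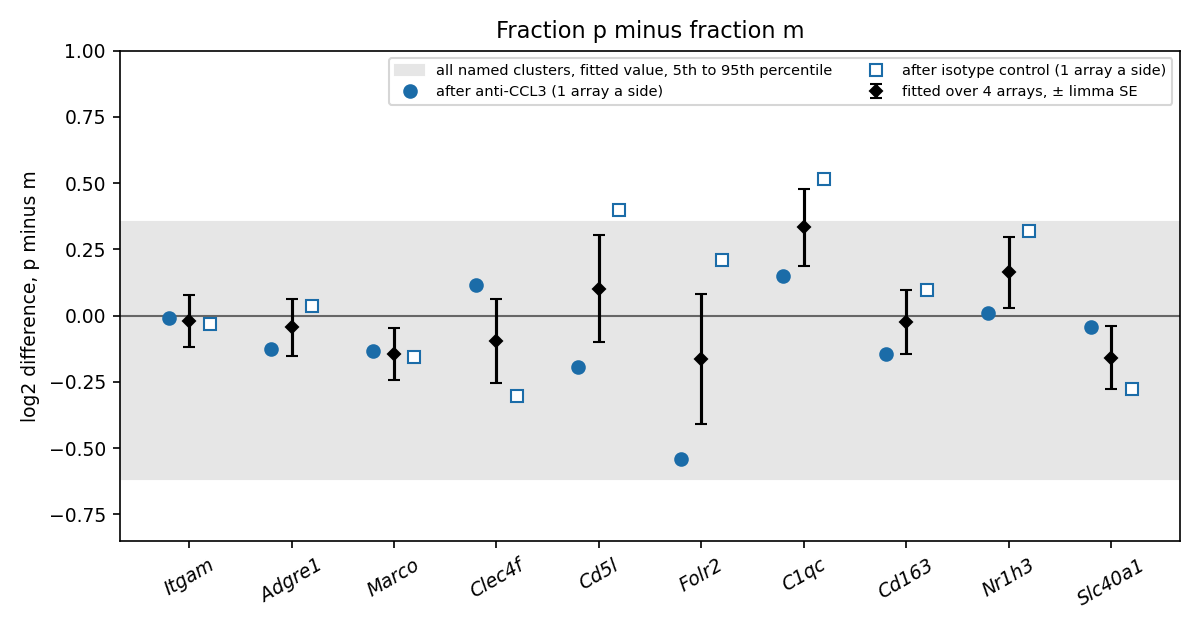
Log2 difference, fraction p minus fraction m (vertical axis), of the 10 genes after anti-CCL3 (filled circles) and after isotype control (open squares), each from 1 array a side, with the value fitted over 4 arrays and limma's standard error (black). The grey band is the 5th to 95th percentile of the fitted values of 30604 named probe sets; C1qc has the largest fitted value, 0.33, and Folr2 the most negative, -0.16.

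Between fractions, 3 of 10 members were higher in p after anti-CCL3 and 6 of 10 after isotype control, with medians of -0.08 and 0.07. The count after anti-CCL3 turned with the scaling: 6 were higher under quantile normalisation, with a median of 0.02, and 6 under cyclic loess normalisation, with a median of 0.02, while 4 were under median centring and 5 under centring on the negative controls. After isotype control 6 or 7 were higher under each. Over all named probe sets the medians were -0.03 and 0.00. The fitted values had a median of -0.03, against -0.02 over all named probe sets, and ran from -0.16 in Folr2 and -0.16 in Slc40a1 to 0.16 in Nr1h3 and 0.33 in C1qc. Each of these was smaller in size than the difference seen in at least 70.2% of negative controls. C1qc and Nr1h3 remained higher on both p arrays under all 4 other scalings. Marco and Slc40a1 remained lower on both under median centring, and Marco alone under centring on the negative controls. Neither Marco nor Slc40a1 did under quantile or cyclic loess normalisation. As deposited, both p arrays were above both m arrays in 15.9% of all named probe sets and below them in 20.8%. The shares under the other scalings were not computed.

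Other genes of Kupffer cells also had levels inside the distribution of the controls. Of 22 further identity genes, none of them a member, 20 had a probe set, with a median signal of 6.01, and 0 lay above the 75th percentile of the negative controls. Xlr and Cfp, the complement protein properdin, were brightest at 7.60 and 6.95. For antibody 14 were higher and 6 lower, where 55.3% of all named probe sets were higher, and 0 passed. The median of the list was 0.06 and stayed between 0.04 and 0.05 under the 4 other scalings. The 2 highest were Spic, a factor needed for red pulp and some other iron-recycling macrophages, at 0.23 ± 0.11 (SE), and Il18bp, the decoy receptor of interleukin 18, at 0.17 ± 0.12. The 2 lowest were Id1 and the complement receptor gene Vsig4, at -0.12 ± 0.11 and -0.09 ± 0.19. For fraction 10 were higher and 10 lower, with a median of -0.0057, which was between 0.0085 and 0.0425 under the 4 other scalings. Timd4, a receptor for dying cells that marks long-resident macrophages, stood at 0.14 ± 0.18 and Clec1b at -0.28 ± 0.14 (SE).

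Scavenger receptors outside the members, 14 of 14 with a probe set, had a median signal of 6.25, and 6 were higher and 8 lower after anti-CCL3, with a median of -0.03. Msr1, the class A receptor closest in kind to MARCO, stood at 0.08 ± 0.10 and Mrc1, the mannose receptor, at -0.15 ± 0.11 (SE). Complement and phagocytosis genes, 14 of 16 with a probe set and Itgam among them, had a median signal of 6.19, with 9 higher and 5 lower after anti-CCL3. Monocyte and monocyte-derived macrophage genes, 13 of 16 with a probe set, had a median signal of 6.17, with 6 higher and 7 lower after anti-CCL3. Ly6c2, which marks inflammatory monocytes, stood at 0.57 ± 0.13 (SE), with 0.70 within m and 0.43 within p, a mean signal of 5.44 and an adjusted p of 0.676 in limma. The lowest of that list were S100a6, a calcium-binding protein, at -0.26 ± 0.14, and Gpr141, an orphan receptor, at -0.21 ± 0.15 (SE). The median of the list was -0.02, and it was -0.12 under quantile and -0.11 under cyclic loess normalisation. In each of these lists 0 genes passed for antibody or for fraction.

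Median signals of markers of other cells lay near that of the negative controls too. They were 6.46 for neutrophil genes, 6.43 for dendritic cell genes, 6.49 for T and NK cell genes, 6.40 for B cell genes, 6.12 for hepatocyte genes, 5.88 for sinusoidal endothelial genes, 6.14 for stellate and bile duct cell genes and 5.94 for epithelial genes of colorectal tumours. Transcripts that leukocytes make in abundance had a median of 6.05. Some of these genes differed more than any member's fitted value, with like values in both pairs of arrays. For p minus m, S100a8 of neutrophils stood at 0.65 after anti-CCL3 and 0.90 after isotype control, and Cd3d of T cells at 0.59 and 0.67. Other genes of the same lists went the other way. Cxcr2, a chemokine receptor of neutrophils, stood at -0.41 and -0.47, and Klrb1c of NK cells at -0.98 and -0.35. Of 11 neutrophil genes 6 were higher and 5 lower in fraction p, with a fitted median of 0.02. Of 9 T and NK cell genes 5 were higher and 4 lower, with a fitted median of 0.02. Tyrobp, an adaptor of myeloid receptors, stood at -0.65 and -0.71, and Gapdh at -0.65 and -0.62. The mean signals of S100a8 and Tyrobp, 5.16 and 5.60, were below the negative-control median, 6.34. Those of Cd3d, Cxcr2, Klrb1c and Gapdh were above it. For antibody Cxcr2 stood at 0.41 within m and 0.47 within p. In limma 0 of them passed. For fraction the adjusted p was 0.544 for S100a8, Cd3d, Tyrobp and Gapdh, 0.575 for Cxcr2 and 0.635 for Klrb1c. For antibody it was 0.676 for Cxcr2. Over all lists, Gapdh at 9.96, Ly6g of neutrophils at 7.98 and Hamp of the iron list at 7.97 lay above the upper quartile of the negative controls, 7.84. Above their 95th percentile, 11.6, which most named probe sets do not reach, lay 0. What part such cells have in the members' signals was not tested.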

How the data were processed

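Per the labels' protocols, RNA was isolated with TRIzol, cleaned on a column and carried a biotin label. The authors deposited log2 values, 1 for each probe set and array, and RMA and Affymetrix Expression Console are named in the submitters' processing notes. The sources used here give no version, option or genome build, and the log2 scale was inferred from what RMA usually returns and from the range of the values, 2.34 to 19.9. Genes were named through the platform annotation, with 827 symbols updated through the gene number. The 2146 probe sets listing more than 1 symbol, and those without any, were not used.

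limma 3.58.1 in R 4.3.3 (package data.table, version 1.17.8) modelled each of 30604 probe sets on 4 arrays by an antibody effect plus a fraction effect, with empirical Bayes moderation, a prior of 1.76 degrees of freedom and Benjamini-Hochberg adjustment at 0.05. No filter on dim probe sets was used, so that each member had a test. Differences within a fraction or antibody group have 1 array a side and no test. On simulated data the fit recovered most of the very large differences and few or none of the smaller ones. In this model the error behind each p-value joins 1 residual degree of freedom from the 4 arrays with the prior pooled over all probe sets. That residual reflects the gap between the antibody differences of fractions m and p, and it is not a spread between replicates. With only 4 arrays the estimates are imprecise. Members, lists and tests were chosen with earlier results of these data known. Each member is named with its values; from each list the text names genes with the 2 highest and 2 lowest differences or the 2 highest levels, and C1qa besides. Lists count the brightest probe set of a gene. Alternatives were 4 other scalings, a filter, 1 probe set per gene, a fit without the other factor, a prior that follows mean signal and leaving out each array.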

Additional observations from a re-analysis of the deposited data

Results flagged for a closer look

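In the deposited values of 7 genes the antibody difference had one sign in fraction m and the other in fraction p, and in 5 genes the fraction difference changed sign between antibody groups; each value rests on 1 array a side, and the difference between the 2 values was not tested. These counts depended on the scaling: under quantile normalisation 4 genes had opposite antibody signs and 7 opposite fraction signs, under cyclic loess normalisation 5 and 7, and under either centring 6 and 6. For anti-CCL3 minus isotype control, Folr2 stood at 0.23 within m and -0.52 within p, Cd5l at 0.31 and -0.28, C1qc at 0.11 and -0.25, Nr1h3 at 0.0917 and -0.22, and Cd163 at 0.0283 and -0.21. Clec4f and Slc40a1 went the other way, with -0.22 within m and 0.20 within p for Clec4f, and -0.22 and 0.0142 for Slc40a1.

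For fraction p minus fraction m, Folr2 stood at -0.54 after anti-CCL3 and 0.21 after isotype control, Cd5l at -0.19 and 0.40, Cd163 at -0.14 and 0.10, and Adgre1 at -0.13 and 0.0384. Clec4f had the reverse order, 0.12 after anti-CCL3 and -0.30 after isotype control. The gap between both values was largest in Folr2, at -0.75, and 10.6% of all named probe sets and 63.8% of negative controls had a larger one. The mean signal of each of these 8 genes was between the lower and upper quartile of the control probe sets, and opposite signs were also found in 47.4% of all named probe sets for antibody and in 44.9% for fraction.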

How the results depend on the processing

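No alternative produced a call: 0 probe sets passed for antibody or fraction in limma under any of the 8 other fits, and the members' adjusted p ran from 0.762 to 1 for antibody and from 0.647 to 1 for fraction over all of them. Of the 10 antibody differences, that of Cd5l alone changed sign with the scaling, from 0.01 to -0.14 under quantile normalisation, -0.0047 under median centring, -0.0926 under cyclic loess normalisation and -0.0009 under centring on the negative controls. Fraction differences changed sign in 4 genes. Under quantile normalisation Itgam was at 0.0001, Marco at 0.0911 and Cd163 at 0.0167; under cyclic loess normalisation Marco was at 0.0649 and Cd163 at 0.0041; under centring on the negative controls Itgam was at 0.0278, Adgre1 at 0.0042 and Cd163 at 0.0247. The fitted antibody value of Marco moved from -0.03 to -0.28 under quantile and -0.22 under cyclic loess normalisation, and the median over the members from -0.07 to -0.14 and -0.13. The cause was not tested.

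Leaving out 1 array leaves no residual degree of freedom, so these are values without a test, and each equals the difference of the pair that remains. For antibody they ranged from -0.22 to 0.20 in Clec4f, -0.28 to 0.31 in Cd5l, -0.52 to 0.23 in Folr2, -0.25 to 0.11 in C1qc, -0.21 to 0.0283 in Cd163, -0.22 to 0.0917 in Nr1h3 and -0.22 to 0.0142 in Slc40a1. For fraction they ranged from -0.13 to 0.0384 in Adgre1, -0.30 to 0.12 in Clec4f, -0.19 to 0.40 in Cd5l, -0.54 to 0.21 in Folr2 and -0.14 to 0.10 in Cd163. With an array left out, the median over the members ranged from -0.21 to 0.06 for antibody and from -0.08 to 0.07 for fraction. Against all named probe sets in place of the negative controls, the median percentile of the members' levels was 74.9 in place of 57.8. The negative controls carry no named classes, so no split by class was run. Each member's mean signal lay inside the distribution of the negative controls, and all but that of Marco inside its interquartile range. This limits what the values can show.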
